A study of Mus musculus with 768 samples.

Results

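Of 726 single NK cells kept from 2 plates, 519 held no Ifng transcript and the others, the Ifng-positive tumor-infiltrating NK cells, are described here. A well was kept when 1000 to 3500 genes had an RPKM above 0, counting genes found in at least 3 wells of both plates together, and a kept cell was called Ifng-positive when its Ifng value was above 0 RPKM. RPKM is the number of reads of a gene scaled to the length of the gene and to the reads of the cell. Of 360 kept cells on the WT plate 93 were Ifng-positive, which was 25.8% (exact 95% binomial interval 21.4 to 30.7). The rest of the kept cells were on the PD-1-/- plate, where 62 cells of the upper 8 rows of wells and 52 of the lower 8 rows were Ifng-positive, 31.1% (26.4 to 36.2) in all. Kept cells with Ifng at 0 are called Ifng-zero.

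The cells came from MTAP1A tumors, a fibrosarcoma line with low MHC class I that was derived from a Tap1-deficient mouse, growing in C57BL/6 mice (WT) or in C57BL/6, PDCD-1(PD-1)-/- mice (PD-1-/-), in which all cells carry a partial deletion of the gene of the inhibitory receptor PD-1 that stops the protein from being made. Viable cells were sorted as NK1.1-positive and negative for markers of other lineages, CD3 and GR1 among them, and single-cell libraries were made with SMART-SEQ2, a full-length method without molecular identifiers. Tumors of 3 mice per genotype were pooled and each pool filled 1 plate of wells, where the labels give 382 sorted cells. Each genotype is therefore 1 sample and its effect cannot be told apart from that of its plate. The mice were young adults matched for sex and age. Cells of a pool are not replicates, so values are given per plate and no difference was tested. Intervals are Clopper-Pearson intervals and cover counting error only.

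IFN-gamma, the product of Ifng, is the main macrophage-activating cytokine made by NK cells and acts on tumor and immune cells through the receptor subunits IFNGR1 and IFNGR2 and the kinases JAK1 and JAK2. NK cells keep the Ifng locus open before stimulation and transcribe it when activating receptors are engaged or when IL-12, IL-18 and IL-15 act together, through STAT4, T-bet, NF-kB, AP-1 and NFAT. The chemokines CCL3, CCL4, CCL5 and XCL1 are commonly released in the same response and draw monocytes, T cells and cross-presenting dendritic cells.

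The targeted gene could not check the plate labels. Pdcd1, which encodes PD-1, was found in 9 of the cells labelled WT and in 47 of those labelled PD-1-/-, and, since the deletion removes only some of its exons, transcripts of the gene can still be read in PD-1-/- cells. Values per gene do not show which exons were read. WT and PD-1-/- are used below for the plates so labelled. Each Ifng-positive cell held at least 3 of 8 NK markers (Ncr1, Klrb1c, Klrk1, Klre1, Eomes, Tyrobp, Fcer1g and Gzma). The summed level of these 8 markers had a median of 19262.9 RPKM in Ifng-positive and 17006.4 RPKM in Ifng-zero cells on the WT plate, and of 17367.4 and 16906.4 RPKM on the PD-1-/- plate. At least 1 of 10 T cell markers (the CD3 chains, Cd4, Cd5, Cd6, Cd8a, Cd8b1, Bcl11b and Themis) was found in 22.6% of Ifng-positive and 22.1% of Ifng-zero cells on the WT plate and in 22.8% and 28.6% on the PD-1-/- plate. Their summed level was 0 RPKM in the median cell of each group and at most 6140.4 RPKM, and 2 of the 10 were at 0 in the Ifng-positive cells of each plate. At least 1 of 8 myeloid markers was found in 67.7% of Ifng-positive and 71.5% of Ifng-zero WT cells. The shares were 69.3% and 67.5% on the PD-1-/- plate. At least 3 of these 8 were found in 2 of 93 WT and 3 PD-1-/- Ifng-positive cells. At least 1 B cell marker was found in 1 cell of each plate, at least 1 neutrophil marker in 2 cells of each, and at least 1 of 4 fibrosarcoma-type collagen and matrix markers in 4 and 5 cells.

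The Ifng promoter is shown first because Ifng defines the cells, and the Ccl3 promoter because Ccl3 is the nearest companion gene below for which a promoter was available. Both run from 250 bases before to 50 bases after the RefSeq start site on GRCm38.p6, 5′ to 3′ on the strand of the gene. Capitals mark the letters of the motifs searched. The Ifng window lies on the plus strand at chr10:118440796-118441095, and the Ccl3 window on the minus strand at chr11:83649329-83649628.
Ifng: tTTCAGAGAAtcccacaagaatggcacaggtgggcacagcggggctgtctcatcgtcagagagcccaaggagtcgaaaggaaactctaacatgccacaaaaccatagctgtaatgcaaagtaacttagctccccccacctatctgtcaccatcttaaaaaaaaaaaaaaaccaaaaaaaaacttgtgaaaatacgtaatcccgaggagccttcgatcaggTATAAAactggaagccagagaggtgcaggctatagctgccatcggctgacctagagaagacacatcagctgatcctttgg
Ccl3: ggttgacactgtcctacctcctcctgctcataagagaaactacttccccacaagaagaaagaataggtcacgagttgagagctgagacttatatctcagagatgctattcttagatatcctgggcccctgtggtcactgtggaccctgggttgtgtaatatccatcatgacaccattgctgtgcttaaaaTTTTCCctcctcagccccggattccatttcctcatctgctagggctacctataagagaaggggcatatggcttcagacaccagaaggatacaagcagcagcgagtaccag
In the Ifng window the capitals are a STAT-type motif, TTCNNNGAA, whose first base is at position -249 from the start site, and TATAAA at position -30. In the Ccl3 window they are GGAAAA, the NFAT core, on the opposite strand at position -60. These matches are letters in a window and not measured sites.

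The motifs were searched on both strands, namely AP-1 (TGANTCA), NFAT (GGAAAA), T-box (TCACACC), CRE (TGACGTCA), an NF-kB motif, STAT (TTCNNNGAA), EGR (GCGNGGGCG) and TATAAA. Ifng and 12 of the 15 genes with the largest difference on the plate nearer to 0 were in the promoter table, and Ccdc53, Ccl4 and Rgs1 were not matched. Among those 12, GGAAAA was found in 4 (Ccl3, Mtpn, Rfk and Tfg), against 23.4% of all 32851 promoters. The EGR motif was found in 2 (Pa2g4 and Rfk), against 5.55% of all promoters. The T-box motif was in Mlx alone, the CRE in Rap1b alone and the NF-kB motif in Tfg alone, against 3.98%, 1.79% and 4.79% of all promoters. The AP-1, STAT and TATAAA letters were in none of the 12, against 7.81%, 8.30% and 13.6%.

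Ifng was present at high levels in most of the cells that held it. Ifng values chose these cells, so the values are a description. On the WT plate Ifng ran from 1.74 to 2728.9 RPKM, with a median of 220.3 RPKM and an upper quartile of 475 RPKM. On the PD-1-/- plate it ran from 1.62 to 10041.1 RPKM, with a median of 286.6 RPKM and an upper quartile of 464 RPKM. The ranges of the plates overlapped almost entirely. The mean was 332.1 RPKM on the WT plate and 448.8 RPKM on the PD-1-/- plate, and without the highest cell of each plate it was 306.1 and 363.9 RPKM. That highest PD-1-/- cell alone held 5056 Ifng reads and 19.6% of the summed Ifng RPKM of its plate.

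Reads recovered from the RPKM steps showed how many cells rested on few Ifng reads. At least 10 Ifng reads were found in 84.9% of Ifng-positive cells on the WT plate and 89.5% on the PD-1-/- plate, and the WT median was 71 reads. A single read put 8 WT cells and 5 PD-1-/- cells in the group. The 3 lowest values were 1.74, 2.18 and 2.31 RPKM on the WT plate and 1.62, 1.89 and 2.18 RPKM on the PD-1-/- plate, each from 1 read, and cells just outside the rule had 0 reads.

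**Figure D1:**
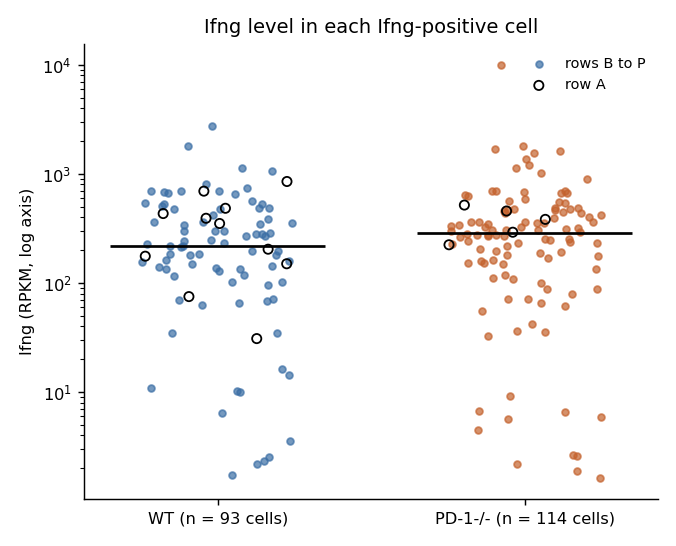
Ifng level of each Ifng-positive cell in RPKM (log axis) on the WT plate (93 cells) and the PD-1-/- plate. Each point is 1 cell, open circles are cells of plate row A, and lines are the medians, 220.3 and 286.6 RPKM. Most cells lie above 100 RPKM on both plates, with a tail of cells down to 1.74 RPKM (WT) and 1.62 RPKM (PD-1-/-) and 1 PD-1-/- cell at 10041.1 RPKM.

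Ifng-positive and Ifng-zero cells were of similar depth. Ifng-positive cells had a median of 2261 detected genes and 371900 reads on the WT plate, and Ifng-zero cells 2265 genes and 389375 reads. On the PD-1-/- plate the medians were 2303.5 genes and 427081 reads in Ifng-positive cells and 2238 genes and 398327 reads in Ifng-zero cells. Among kept cells the share with Ifng did not rise steadily with the number of detected genes. For cells below 2000, from 2000 to below 2500, and from 2500 detected genes it was 29.4%, 19.1% and 30.8% on the WT plate and 29.3%, 34.4% and 29.7% on the PD-1-/- plate. In wells above the upper limit of 3500 genes, which were not kept, Ifng was found in 10 of 16 WT wells (62.5%, 35.4 to 84.8) and 5 of 14 PD-1-/- wells (35.7%, 12.8 to 64.9). In wells below 1000 genes it was found in 0 of 8 and 0 of 4 (exact intervals up to 36.9% and 60.2%). The lowest recovered read total of an Ifng-positive cell was 2616 on the WT plate and 31032 on the PD-1-/- plate. Every kept cell had at least 1000 detected genes, and whether the recovery holds at so few reads was not tested.

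The intervals of the Ifng share overlapped between the plates. The first row of wells of the WT plate stood apart. In row A of that plate 11 of 17 cells (64.7%, 38.3 to 85.8) were Ifng-positive, against 82 cells (23.9%, 19.5 to 28.8) in the other rows. Row A of the PD-1-/- plate had 5 of 23 (21.7%) and its other rows 31.8%. Outside row A the shares per row ran from 9.09% (row D) to 41.7% (row G) on the WT plate and from 12.5% (row M) to 54.5% (row F) on the PD-1-/- plate. Other transcripts moved with the WT row A. T cell markers were found in 8 of its 11 Ifng-positive cells, against 13 of 82 outside it, and Cd3g, a chain of the T cell receptor complex, in 6 of 11 against 7 of 82. Their part in the result was not tested. Among cells without any CD3 chain the Ifng share was 25.1% (20.2 to 30.4) on the WT plate and 31.8% (26.4 to 37.6) on the PD-1-/- plate.

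**Figure D2:**
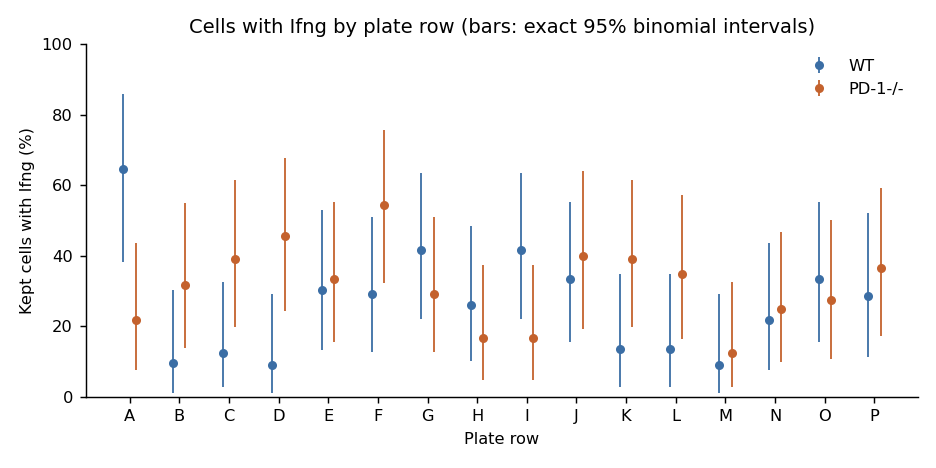
Share of kept cells with Ifng (%) in each of the 16 plate rows, A to P, for the WT and the PD-1-/- plate, with exact 95% binomial intervals. Row A of the WT plate is the highest at 64.7%, and the intervals of most other rows overlap.

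To ask what else Ifng-positive cells held, each was paired with 1 Ifng-zero cell of the same plate with a similar number of detected genes, which gave a pair for every Ifng-positive cell, and the pairs differed by 7.72 and 7.84 genes on average. Entries found in at least 10% of the kept cells of each plate were compared, 6403 in all, by the difference in mean log2(RPKM + 1) between Ifng-positive and matched Ifng-zero cells, here called the log2 difference. An entry was called when this was at least 1 in size. A log2 difference in these data mixes how many cells held a transcript and how much each held.

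Only Ccl4, Ccl3 and Rgs1 were higher by at least 1 on both plates, and no entry was lower by at least 1 on both. On the WT plate 74 entries (1.16%) were higher and 67 (1.05%) lower by this measure, and on the PD-1-/- plate 47 (0.734%) were higher and 37 (0.578%) lower. The 3 shared entries were 0.0469% of those compared. Of the 74 entries higher on the WT plate 37 were above 0 on the PD-1-/- plate, where 49.3% of all compared entries were. Of the 47 higher on the PD-1-/- plate 20 (42.6%) were above 0 on the WT plate, where 50.1% of all compared entries were. Entries called higher on 1 plate were thus not clearly more often above 0 on the other plate than all entries. Across all compared entries the differences of the plates had a Pearson correlation of -0.02, and their SD over entries was 0.41 on the WT plate and 0.37 on the PD-1-/- plate. Against all Ifng-zero cells without pairing, 5 entries (0.0781%) were higher on both plates, namely Ccl3, Ccl4, Klrc1, Rfk and Rgs1, and 30 (0.469%) and 28 (0.437%) were higher on each.

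**Figure D3:**
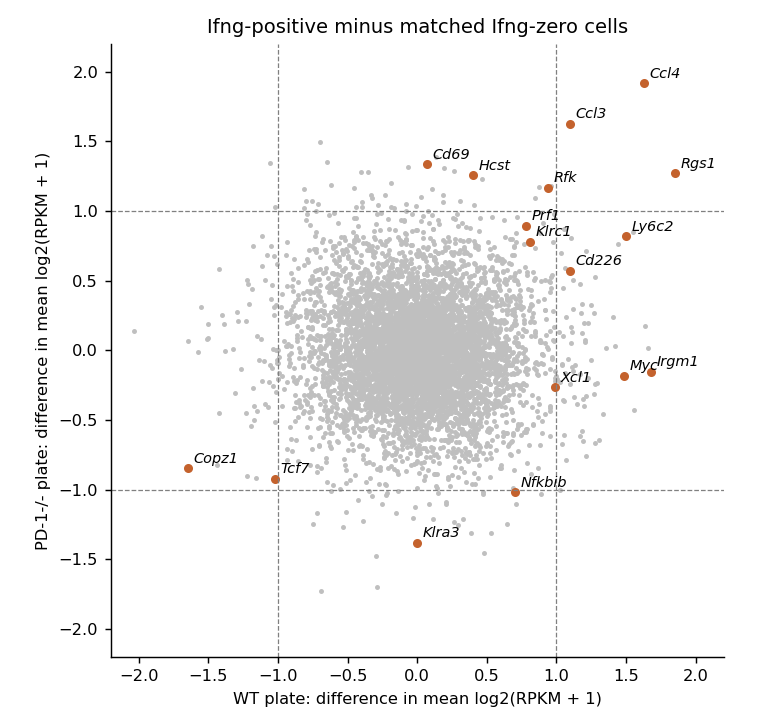
Difference in mean log2(RPKM + 1) between Ifng-positive and matched Ifng-zero cells on the WT plate (horizontal axis) and the PD-1-/- plate (vertical axis) for 6403 entries, with named genes in color. Dashed lines mark differences of 1 and -1. Ccl4, Ccl3 and Rgs1 are alone in the upper right corner, the lower left corner is empty, and the cloud has no slope.

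Ccl4 encodes the chemokine CCL4 (MIP-1 beta), which draws monocytes and T cells. It was found in 37 of 93 Ifng-positive WT cells (39.8%, 29.8 to 50.5) and in 23 of their 93 matched Ifng-zero cells (24.7%, 16.4 to 34.8). On the PD-1-/- plate it was found in 58 (50.9%, 41.3 to 60.4) and in 38 matched cells (33.3%, 24.8 to 42.8). The intervals of Ifng-positive and matched cells overlapped on both plates. The lowest, median and highest levels of Ccl4 were 0, 0 and 48168.9 RPKM in Ifng-positive WT cells and 0, 0 and 31368.0 RPKM in their matched cells. They were 0, 3.50 and 23038.6 RPKM in Ifng-positive PD-1-/- cells and 0, 0 and 23949.0 RPKM in their matched cells. The ranges therefore overlapped throughout, and the log2 difference was 1.63 on the WT plate and 1.92 on the PD-1-/- plate.

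Ccl3 encodes CCL3 (MIP-1 alpha), an inflammatory chemokine that lies beside Ccl4 in the genome. It was found in 27 of 93 Ifng-positive WT cells (29%, 20.1 to 39.4) against 17.2% (10.2 to 26.4) of matched cells. It was found in 41 Ifng-positive PD-1-/- cells (36%, 27.2 to 45.5) and in 19.3% (12.5 to 27.7) of matched cells. Most cells of every group had none. Its highest level was 15357.7 RPKM in Ifng-positive and 1288.4 RPKM in matched WT cells, and 29502.3 and 12563.1 RPKM on the PD-1-/- plate. The log2 differences of Ccl3 were 1.10 and 1.63.

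Rgs1 encodes a regulator of G protein signaling that dampens chemokine receptor signals and is induced by lymphocyte activation. It was found in 55 of 93 Ifng-positive WT cells (59.1%, 48.5 to 69.2), 35.5% (25.8 to 46.1) of matched cells and 43.8% (37.8 to 50) of all Ifng-zero WT cells. Rgs1 was found in 61 Ifng-positive PD-1-/- cells (53.5%, 43.9 to 62.9), 41.2% (32.1 to 50.8) of matched and 42.5% (36.3 to 48.8) of all Ifng-zero cells. The intervals of Ifng-positive and matched cells were apart for Rgs1 on the WT plate and overlapped on the PD-1-/- plate. Against all Ifng-zero cells they overlapped on the WT plate too. Rgs1 was picked for its difference in these same cells, so nothing is read from the gap. Its median level was 12.3 RPKM in Ifng-positive WT cells and 4.29 RPKM in Ifng-positive PD-1-/- cells, against 0 in the matched cells of both plates. The highest levels of Rgs1 were 9636.8 and 8468.4 RPKM on the WT plate and 5864.6 and 7046.6 RPKM on the PD-1-/- plate. The log2 differences were 1.85 and 1.27, and against all Ifng-zero cells 1.26 and 1.12.

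The position on the plate moved with these values. In rows A to H the log2 difference of Ccl4 was 2.49 on the WT plate and -0.28 on the PD-1-/- plate, while in rows I to P it was 0.43 and 3.80. Ccl3 gave 1.42 and 0.52 in the upper rows and 0.65 and 2.29 in the lower rows, and Rgs1 gave 2.18 and 1.44, then 0.98 and 0.87. Ccl3 and Rgs1 were thus above 0 in each part of both plates, and Ccl4 in each but rows A to H of the PD-1-/- plate. Without row A the values were 1.07 and 2.47 for Ccl4, 1.0 and 1.88 for Ccl3 and 1.65 and 1.31 for Rgs1. Without cells that held a CD3 chain they were 2.18 and 2.23, 1.53 and 1.93, and 1.24 and 1.48. With every cell thinned to 100000 reads Rgs1 gave 1.35 and 0.67.

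Few Ifng-positive cells held Ccl3, Ccl4 and Rgs1 together, and few held none. None of Ccl3, Ccl4 and Rgs1 was found in 18.3% of Ifng-positive WT cells (11 to 27.6) against 44.1% (33.8 to 54.8) of matched cells, and in 20.2% against 32.5% on the PD-1-/- plate. All 3 of Ccl3, Ccl4 and Rgs1 were found in 11.8% against 4.30% on the WT plate and in 13.2% against 2.63% on the PD-1-/- plate. Ccl3, Ccl4 and Rgs1 are the genes the comparison picked out, so these shares describe the same cells again. Turned around, 40.5% (29.6 to 52.1) of WT cells with Xcl1 and Ccl4 were Ifng-positive against 21.7% (17 to 27) of the others, and 41.2% (31.5 to 51.4) against 27.3% (22 to 33.1) on the PD-1-/- plate. With Ccl4 a picked gene, these shares too describe the same cells again.

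Of 17 cytokine and chemokine genes on a fixed list 9 could be compared, and Ccl3 and Ccl4 were the only ones called. Both were called on both plates, against 0.0469% of all entries. The median log2 difference of the 9 was 0.09 on the WT plate and 0.43 on the PD-1-/- plate, beside 0.00 and -0.00 over all entries. Xcl1, whose product draws cross-presenting dendritic cells, was found in 81.7% of Ifng-positive and 75.3% of matched WT cells and in 70.2% and 75.4% on the PD-1-/- plate, with log2 differences of 0.99 and -0.26. Ccl5, a chemokine that NK cells store as message, was found in over 90% of cells in each group and differed by -0.60 and 0.98. Fasl, a death ligand, differed by 0.09 and 0.69. Tnf, which NK cells often release beside IFN-gamma, was found in 11.8% of Ifng-positive and 15.1% of matched WT cells and in 16.7% and 7.02% on the PD-1-/- plate. Csf2, which encodes GM-CSF, was found in 5.38% of both groups on the WT plate and 4.39% of both on the PD-1-/- plate, and Il13 in none of the cells.

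The activation-induced genes that were called differed between the plates, apart from Rgs1. Of 26 compared genes of the immediate early and activation list 14 (53.8%) were above 0 on both plates, against 24.5% of all compared entries, and the median log2 differences were 0.32 and 0.30. Called were Rgs1 on both plates, Myc on the WT plate (1.49, with -0.18 on the PD-1-/- plate), and Cd69 and Dusp2 on the PD-1-/- plate (1.34 and 1.04, with 0.07 and -0.01 on the WT plate). The list thus had 2 genes higher on the WT plate and 3 on the PD-1-/- plate, against 1.16% and 0.734% of all entries. A high share above 0 on both plates was not particular to this list. That share was 47.4% for IL-12, IL-18 and IL-2/15 signaling, 44.4% for tissue-resident NK cells and ILC1 and 36.8% for Ifng locus factors. Other lists lay below the 24.5% of all entries, among them NF-kB (13.3%), biosynthesis and translation (23.1%) and IFN-gamma-induced genes (23.8%). Cd69, an early activation receptor, was found in 40.4% of Ifng-positive and 27.2% of matched PD-1-/- cells and in 33.3% and 36.6% of WT cells. Dusp1, a phosphatase that ends MAP kinase signals, differed by 0.76 on both plates. Among factors induced by receptor signals, Egr1 differed by 0.35 and 0.45, Nr4a2 by 0.76 and -0.02 and Fos by 0.42 and 0.21, none of them called. At least 1 Nr4a or Egr gene was found in 34.4% of Ifng-positive and 26.9% of matched WT cells, and in 33.3% and 26.3% of PD-1-/- cells.

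None of 19 compared transcription factors known to act on the Ifng locus was called on either plate, with medians of 0.30 and 0.10. Over all entries 1.16% and 0.734% were called higher and 1.05% and 0.578% lower, so in a list of 19 this says little. Of the 19 factors 7 (36.8%) were above 0 on both plates, against 24.5% of all entries. Tbx21 (T-bet), which opens and drives Ifng, was found in 66.7% of both groups on the WT plate and in 78.1% and 69.3% on the PD-1-/- plate, with log2 differences of 0.09 and 0.68. Eomes, its relative in NK cells, differed by 0.03 and -0.37, and Stat4, the IL-12 signal transducer, by 0.30 and -0.33. Bhlhe40, a repressor of Il10, differed by 0.57 and 0.68. Prdm1, which encodes Blimp-1, was found in 25.8% of Ifng-positive and 11.8% of matched WT cells and in 21.1% and 13.2% on the PD-1-/- plate, with log2 differences of 0.58 and 0.51.

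The list for IL-12, IL-18 and IL-2/15 signaling also held Il10rb, a chain shared by the IL-10 receptor family. Of its 19 compared genes Il10rb alone was called, on the WT plate (1.21, and 0.72 on the PD-1-/- plate), against 1.16% of all entries. No other gene of the list was called on either plate, and the medians were 0.10 and 0.21. Of the 19 genes 9 (47.4%) were above 0 on both plates, against 24.5% of all entries. On both plates 0 of them were below 0, against 25.2% of all entries. Il15ra (-0.65 and -0.46) and Il7r (-0.17 and -0.39) of the list were below 0 on both plates. They were found in too few cells to be among those compared. Il12rb2, the signaling chain of the IL-12 receptor, differed by 0.30 and -0.36, and Il18r1 by -0.75 and 0.50. Il2rb, which carries the IL-15 signal, was found in 100% and 98.9% of WT cells and 99.1% of both PD-1-/- groups. In the NF-kB list none of 15 genes was higher by 1, against 1.16% and 0.734% of all entries, and the medians were -0.02 and -0.18. Nfkbib, an inhibitor of NF-kB, was lower on the PD-1-/- plate (-1.02) but not on the WT plate (0.70). Over all entries 0.578% were lower on the PD-1-/- plate.

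Among 24 compared activating receptors and their proximal signal, 2 were called higher on the WT plate and 1 on the PD-1-/- plate, none on both. Over all entries the shares called higher were 1.16% and 0.734%. The medians of the list were -0.10 and 0.35. Cd226, which encodes the activating receptor DNAM-1, was found in 26.9% of Ifng-positive and 10.8% of matched WT cells. On the PD-1-/- plate the shares were 43.9% and 38.6%. Its log2 differences were 1.10 and 0.57, and against all Ifng-zero cells 0.64 and 1.04. Cd226 moved with row A of the WT plate, where it was found in 6 of 11 Ifng-positive cells. Outside that row it was found in 23.2% of Ifng-positive and 15.7% of Ifng-zero WT cells. Slamf7, a self-ligand receptor of NK cells, differed by 1.12 and 0.50. Hcst, which encodes the NKG2D adaptor DAP10, differed by 0.40 and 1.26. Ncr1, which encodes NKp46, was found in 82.8% of Ifng-positive and 92.5% of matched WT cells and in 90.4% of both PD-1-/- groups, with log2 differences of -0.85 and 0.37.

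Among inhibitory receptors and brakes, the genes called were called on 1 plate each. Of 20 compared genes 3 were higher and 1 lower on the WT plate, against 1.16% and 1.05% of all entries, and 1 was lower on the PD-1-/- plate, against 0.578%. The medians were 0.15 and -0.12. On the WT plate the higher genes were Socs1, an inhibitor of cytokine signals that IFN-gamma itself induces (1.25, with 0.33 on the PD-1-/- plate), Lilrb4 (1.28 and -0.24) and Inpp5d, which encodes the phosphatase SHIP-1 (1.14 and -0.38). Cd96, a competitor of DNAM-1 for its ligand, was lower on the WT plate (-1.14 and -0.07), and Klra3, which encodes Ly49C, on the PD-1-/- plate (0.00 and -1.38). Klrc1, which encodes the inhibitory receptor NKG2A, was found in 64.5% of Ifng-positive and 55.9% of matched WT cells and in 75.4% and 67.5% of PD-1-/- cells. Its log2 differences were 0.81 and 0.78 after matching and 1.17 and 1.12 against all Ifng-zero cells. In rows I to P Klrc1 gave -0.55 on the WT plate and 1.66 on the PD-1-/- plate.

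Cytotoxic genes were abundant in Ifng-positive and Ifng-zero cells alike. None of 16 granule genes was called, and the medians were 0.04 and 0.08. Over all entries 1.16% and 0.734% were called higher and 1.05% and 0.578% lower, so in a list of 16 this says little. Prf1, which encodes the pore-forming protein perforin, had the largest difference on the plate nearer to 0 among genes found in at least 80% of cells. Prf1 was found in 92.5% of Ifng-positive and 84.9% of matched WT cells and in 93% and 85.1% of PD-1-/- cells, with log2 differences of 0.78 and 0.90. Gzmb, which encodes granzyme B, differed by 0.66 and 0.36, Gzma by 0.49 and -0.28 and Gzmc by 0.62 and -0.61.

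Genes that IFN-gamma induces were not raised together in the cells that held its message. Of 21 compared genes 1 was called higher on the WT plate and 2 on the PD-1-/- plate, against 1.16% and 0.734% of all entries. The medians were 0.11 and -0.06. Irgm1, a GTPase of cell-autonomous defense, was higher on the WT plate (1.68, against -0.15 on the PD-1-/- plate). Gbp4, a guanylate-binding protein, and Nlrc5, the activator of MHC class I genes, were higher on the PD-1-/- plate (1.11 and 1.04, against -0.33 and -0.28 on the WT plate). Ifngr1, the ligand-binding chain of the receptor, was found in 100% of both WT groups and in 99.1% and 100% of PD-1-/- cells, while Ifngr2 was found in 4.30% of Ifng-positive WT cells and in 0 Ifng-positive PD-1-/- cells, where the exact interval reaches 3.18%. Among 11 regulators of Ifng mRNA none was called, which says little beside those shares of all entries, and the medians were 0.13 and -0.04. Zfp36, whose protein TTP degrades cytokine messages, differed by 0.55 and 0.52.

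Among genes of NK maturation, tissue residency and metabolism, those called were called on 1 plate each. Of 12 genes of circulating and mature NK cells 2 were higher on the WT plate, against 1.16% of all entries. They were Ly6c2 (1.5, and 0.82 on the PD-1-/- plate) and S100a4 (1.06 and 0.59). None of the 12 was called on the PD-1-/- plate, and the medians were -0.16 and 0.35. Ly6c2 moved with row A of the WT plate, where it was found in 9 of 11 Ifng-positive cells, while outside that row it was found in 29.3% of Ifng-positive and 21.1% of Ifng-zero WT cells. Without rows A and B its log2 differences were 0.88 and 1.42. Of 9 genes of tissue-resident NK cells and ILC1, Tcf7 was lower on the WT plate, against 1.05% of all entries. The medians were 0.24 and 0.15. None of 16 glycolysis and hypoxia genes was called (medians 0.17 and -0.09), and Ldha, a lactate dehydrogenase subunit, differed by 0.21 and 0.32. Of 26 biosynthesis and translation genes Cct5, a subunit of a protein-folding complex, was lower on the PD-1-/- plate (-1.10, with 0.21 on the WT plate). Over all entries 0.578% were lower on that plate. The medians of the list were 0.17 and -0.25. No compared marker of cycling cells (5), NK cells (8), T cells (2) or myeloid cells (2) was called. At most 1.16% of all entries were called in either direction on either plate. The absence of a call among these markers or the glycolysis genes therefore says little.

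Beyond these lists, the genes with the largest difference on the plate nearer to 0 had varied roles. Rfk, which encodes riboflavin kinase, was found in 44.1% of Ifng-positive and 30.1% of matched WT cells and in 45.6% and 28.9% of PD-1-/- cells, with log2 differences of 0.94 and 1.17. Other higher genes were Mrpl20 of the mitochondrial ribosome (0.98 on both plates), Tfg of endoplasmic reticulum export (0.96 and 1.18), Emc7 of a membrane protein insertion complex (1.06 and 0.87), the SNARE gene Stx18 (0.88 and 0.84) and Rap1b, a small GTPase of integrin activation (1.55 and 0.85). Mtpn (0.90 and 0.91), Ccdc53 (0.87 and 1.18), Rbl2, a brake on the cell cycle (0.84 and 1.09), Pa2g4 (1.11 and 0.80) and Mlx (0.97 and 0.78) completed the set. Among widely found genes Cd82 (0.57 and 0.65), Atp5d (0.65 and 0.58), Ndufa13 (0.45 and 0.95), Esyt1 (0.39 and 0.49) and Gnas (0.67 and 0.38) followed Prf1.

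The lowest value on the plate nearer to 0 belonged to Tcf7 and Rnh1. Tcf7 encodes TCF-1, a factor of immature and memory-like lymphocytes. Tcf7 was found in 45.2% of Ifng-positive WT cells (against 57% of matched cells) and in 28.1% of Ifng-positive PD-1-/- cells (against 42.1%), with log2 differences of -1.02 and -0.92. Without row A the differences of Tcf7 were -0.44 and -0.97. Itm2a, a membrane protein induced in activated and developing lymphocytes, was found in 9.68% against 29% on the WT plate and in 14% against 24.6% on the PD-1-/- plate, with log2 differences of -1.44 and -0.82. The other lower genes were Copz1 (-1.65 and -0.85), Rnh1 (-1.16 and -0.92), Pop5 (-1.22 and -0.90), Fam26f (-0.85 and -0.79), Nubp2 (-0.93 and -0.79), Abi1 (-0.77 and -0.82), Ubac2 (-0.75 and -1.25) and Uqcr11 (-0.90 and -0.72). Among widely found genes Ywhab (-0.53 and -0.52), Mbnl1 (-0.68 and -0.49), Tagln2 (-0.65 and -0.46) and Skap1 (-0.76 and -0.43) were the lowest.

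Ifng-positive cells were next cut at the median Ifng level of their plate, which makes ranges of 1 group and not cell types. Ccl4 was found in 34.8% of WT cells with lower and 44.7% of those with higher Ifng, and in 52.6% and 49.1% on the PD-1-/- plate. Rgs1 was found in 56.5% and 61.7% on the WT plate and in 54.4% and 52.6% on the PD-1-/- plate. For Ccl3 the shares were 26.1% and 31.9%, then 36.8% and 35.1%. In all Ifng-zero cells the shares were 24% and 32.9% for Ccl4, 16.1% and 18.3% for Ccl3, and 43.8% and 42.5% for Rgs1. Ccl4, Ccl3 and Rgs1 had been picked as higher in these same cells, so nothing is read from where either range lies against Ifng-zero cells. Tcf7 was found in 47.8% and 42.6% of WT and 28.1% of both groups of PD-1-/- cells.

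On the PD-1-/- plate some transcripts were more common in cells with lower Ifng. Klrc1 was found in 87.7% of those with lower and 63.2% of those with higher Ifng, Cd226 in 56.1% and 31.6%, and Pdcd1 in 21.1% and 3.51%. On the WT plate the shares were 65.2% and 63.8% for Klrc1, 30.4% and 23.4% for Cd226, and 8.70% and 6.38% for Pdcd1. Depth moved with this split, since cells with lower and higher Ifng had medians of 2479 and 2006 detected genes on the PD-1-/- plate and 2445.5 and 2153 on the WT plate. Over the Ifng-positive cells the Spearman correlation of Ifng RPKM with detected genes was -0.50 on the PD-1-/- plate and -0.25 on the WT plate (93 cells). The part of depth in these shares was not tested. In cells that held both messages the Spearman correlation of the Ifng level was 0.26 (37 WT cells) and 0.34 (58 PD-1-/- cells) with Ccl4, 0.36 (27 cells) and 0.30 (41 cells) with Ccl3, and 0.14 (55 cells) and 0.17 (61 cells) with Rgs1. Over all Ifng-positive cells of the WT and the PD-1-/- plate, those with none of the second message included, it was 0.14 and 0.16 with Ccl4, 0.14 and 0.17 with Ccl3, and 0.12 and 0.06 with Rgs1. These points share a library per cell, and RPKM of a cell sums over the same reads.

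**Figure D4:**
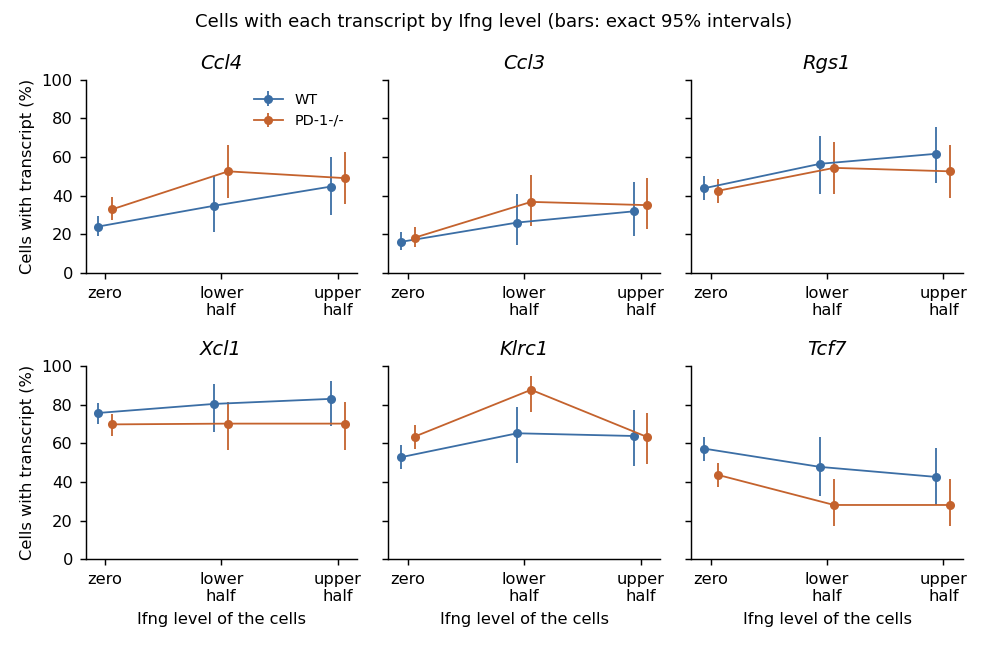
Share of cells (%) with Ccl4, Ccl3, Rgs1, Xcl1, Klrc1 and Tcf7 in all Ifng-zero cells and in Ifng-positive cells below or above the median Ifng level of their plate, with exact 95% binomial intervals (46 and 47 WT and 57 and 57 PD-1-/- Ifng-positive cells). Ccl4, Ccl3 and Rgs1 had been picked as higher in Ifng-positive cells, the intervals of the lower and higher Ifng groups overlap for each of them, and Klrc1 peaks at 87.7% in PD-1-/- cells with lower Ifng.

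Ifng-zero cells that held both Xcl1 and Ccl4 are another group with chemokine message, 47 WT and 60 PD-1-/- cells. Ccl3 was found in 48.9% and 45% of them, above the 29% and 36% of Ifng-positive cells, while these cells had been chosen by the neighboring gene Ccl4. Rgs1 was found in 48.9% and 41.7% of them against 59.1% and 53.5% of Ifng-positive cells. Tcf7 was found in 48.9% and 23.3% of them against 45.2% and 28.1% of Ifng-positive cells. Itm2a was found in 29.8% and 13.3% of them against 9.68% and 14%, Klrc1 in 63.8% and 63.3% against 64.5% and 75.4%, and Socs1 in 42.6% and 46.7% against 62.4% and 62.3%.

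Ifng-positive cells were spread over the transcript-defined states of these tumors. Gzmc, a granzyme of strongly stimulated lymphocytes, was found in 34.4% of Ifng-positive and 31.5% of Ifng-zero WT cells and in 21.9% and 23.4% of PD-1-/- cells. A cycling marker (Mki67, Top2a, Birc5, Ccna2 or Cdk1) was found in 19.4% and 19.1% of WT and 28.1% and 25% of PD-1-/- cells, and a CD3 chain in 20.4% and 17.2% of WT and 21.1% and 23.4% of PD-1-/- cells. S1pr5, a receptor for egress of mature NK cells, was found in 17.2% and 24.3% of WT and 28.1% and 24.2% of PD-1-/- cells, and Klrg1, a marker of mature NK cells, in 12.9% and 16.5%, then 25.4% and 20.6%. Itga1, which encodes the residency integrin CD49a, was found in 19.4% and 11.2% of WT and 28.9% and 22.6% of PD-1-/- cells, and Cxcr6, a residency chemokine receptor, in 11.8% and 6.37%, then 23.7% and 19.8%. For each of these transcripts the intervals of Ifng-positive and Ifng-zero cells overlapped on both plates, and they were apart only on the WT plate for Xcl1 with Ccl4 and for Pdcd1. Ccl4 had been picked as higher in these same cells, so nothing is read from the gap for Xcl1 with Ccl4. Pdcd1 was found in 7 of 93 Ifng-positive and 2 Ifng-zero WT cells, and all 7 lay in row A of the plate, where they were 7 of 11 Ifng-positive cells. Outside row A Pdcd1 was found in 0 of 82 Ifng-positive cells (exact interval up to 4.40%). On the PD-1-/- plate Pdcd1 was found in 12.3% of Ifng-positive and 13.1% of Ifng-zero cells.

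**Figure D5:**
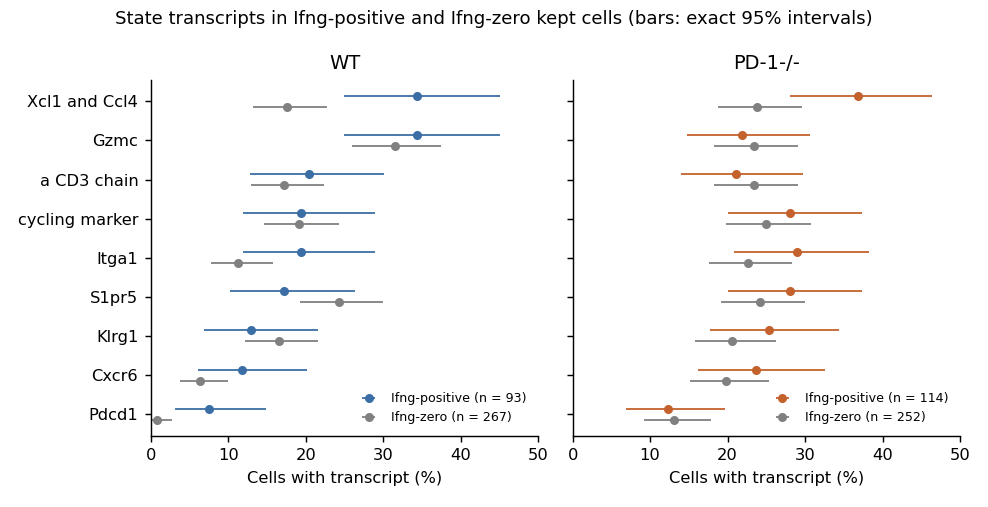
Share of Ifng-positive (colored) and Ifng-zero (grey) kept cells (%) with Xcl1 and Ccl4 together, Gzmc, a CD3 chain, a cycling marker, Itga1, S1pr5, Klrg1, Cxcr6 or Pdcd1 on the WT plate and the PD-1-/- plate, with exact 95% binomial intervals. The groups lie furthest apart for Xcl1 with Ccl4 (34.4% and 17.6% on the WT plate, 36.8% and 23.8% on the PD-1-/- plate). Ccl4 had been picked as higher in Ifng-positive cells.

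Between the plates, Ifng-positive cells differed by at least 1 in many of the 6403 entries, 71 higher (1.11%) and 65 lower (1.02%) on the PD-1-/- plate, while the larger groups of Ifng-zero cells differed in 9 (0.141%) and 11 (0.172%). The numbers of cells were not matched between these comparisons. Higher in Ifng-positive PD-1-/- cells were Ctse, which encodes the protease cathepsin E (2.86, and 2.34 in Ifng-zero cells), Dusp2 (1.88 and 0.57), Cd226 (1.43 and 1.03), Tbx21 (1.07 and 0.22) and Ccl4 (1.01 and 0.83). Lower were Xcl1 (-1.67, and -0.70 in Ifng-zero cells), Irgm1 (-1.38 and 0.25), Tnfrsf9, which encodes the costimulatory receptor 4-1BB (-1.32 and -0.48), Tcf7 (-1.21 and -0.97) and Gzmc (-1.10 and -0.34). For other genes in which the plates had been compared by the study, the difference in Ifng-positive cells was 0.97 for Klrg1, 0.84 for Klrc1, 0.87 for Ly6a and 0.92 for Cxcr6, with 0.50, 0.89, 0.81 and 1.16 in Ifng-zero cells. Ccl3 (0.76 and 0.25), Rgs1 (-0.11 and 0.02) and Prf1 (0.06 and 0.05) were closer between the plates.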

How the data were processed

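Single tumor-infiltrating NK cells were measured on 2 plates, 1 per genotype. RPKM values per gene and well were deposited by the authors. Per the labels, the processing notes name TopHat, Cufflinks, mm9 and mm10 without giving their roles. Groups were taken from the labels. Of 24490 entries, 279 symbols occurred more than once and were kept apart. No value was rescaled, and 1 was added before log2. RPKM values were turned back to whole reads (98.3% of 732479 values below 60 reads were whole within 0.0003) for depth and thinning, and no count model was run. The pairing on detected genes (Ifng not counted) minimized the summed gap, using each cell once.

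Genes were named by rule: the 15 highest and 10 lowest by the log2 difference on the plate nearer to 0, where both plates had the same sign; the 8 highest and 4 lowest among entries found in at least 80% of cells; Ifng; and genes of 21 lists. Ifng-positive cells and lists were chosen with earlier results of these data known. Alternatives changed the matching, thinning, pseudocount, scaling, filters, cells, plate rows and call rule. The analysis was tested on simulated data. Python 3.11.15, numpy 2.4.6, pandas 2.3.3, scipy 1.17.1 and matplotlib 3.10.9 were used. Promoters came from RefSeq (GRCm38.p6).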

Additional observations from a re-analysis of the deposited data

Results flagged for a closer look

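For 8 genes of the fixed lists the log2 difference between Ifng-positive and matched Ifng-zero cells passed 1 in size on 1 plate and had the opposite sign by at least 0.1 on the other, which leaves out Dusp2 (1.04 on the PD-1-/- plate and -0.01 on the WT plate) and Klra3 (-1.38 and 0.00), and the difference between the plates was not tested. The value of the PD-1-/- plate minus that of the WT plate was -1.83 for Irgm1, -1.72 for Nfkbib, -1.67 for Myc, -1.53 for Inpp5d, -1.52 for Lilrb4 and -1.31 for Cct5. It was 1.45 for Gbp4 and 1.33 for Nlrc5.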

How the results depend on the processing

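With 1 pool of mice per genotype no replicate could be left out. No paired analysis was possible because well numbers only name cells. Ifng shares stayed between 23.9% and 27% on the WT plate and between 28.1% and 33.7% on the PD-1-/- plate under all alternatives run. The count of 3 entries higher on both plates became 5 without matching, with weighted bins and without CD3 cells, 6 with matching on reads and without cycling cells, 24 and 1 with pseudocounts of 0.1 and 10, 1 when called by 15 percentage points, 20 when called by the ratio of mean RPKM, and 13 and 20 in rows A to H and I to P. The count of 0 entries lower became 16 with a pseudocount of 0.1, 2 without CD3 cells and without cycling cells, 3 without rows A and B, 9 and 10 in rows A to H and I to P, and 26 by the ratio. The share of entries called on the WT plate that were called on the PD-1-/- plate was 4.05%, and became 16.7% without matching and with a pseudocount of 10, and 14.3% with weighted bins. The reverse share was 6.38%, and became 17.9%, 50% and 19.2% in that order. Alternatives chosen after seeing the data gave 6 higher and 1 lower without row A, 8 and 3 in rows A to H without matching, and 12 and 4 in rows I to P without matching, where the first share was 14.1%. The cause was not tested. Ccl4 was called on both plates in 16 of 20 alternatives, and Ccl3 and Rgs1 in 14 of 20 each. A transcript not found in a cell may have been missed.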
